A study of Mus musculus with 12 samples.

Results

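The 37 genes described here encode the enzymes of mitochondrial and peroxisomal fatty acid oxidation, the carnitine shuttle that feeds the mitochondrial branch, acyl-CoA thioesterases, 1 enzyme of ketone body metabolism, and the nuclear receptor PPARA (Ppara) with its coactivator and several of its liver targets. They were taken from a list of genes with these functions, and all 37 reached a normalized read value of at least 10 in at least 3 of the 12 liver libraries, as did 13871 of the 47263 genes in the table. The function of the gene and this minimum level were the only criteria, so the differences between groups played no part in the rule.

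The libraries were made from whole liver of mice with a Sirt2 deletion restricted to hepatocytes (KO) or without it (WT), sampled 8 weeks after a hydrodynamic tail vein injection given at 6 to 8 weeks of age, on a standard diet. The 4 groups of 3 libraries were KO livers that received MET/CAT, WT livers that received MET/CAT, KO livers that received GFP and WT livers that received GFP. MET/CAT stands for transposon plasmids carrying c-MET and a β-catenin construct (DN90-β-Catenin), both named for the EF1a promoter and given together with a plasmid for the Sleeping Beauty transposase, as a model of liver cancer. All groups share the injection, and the labels do not give the makeup of the GFP plasmids, the driver of the deletion or the exons removed. The sample titles and the treatment field contradict each other for 6 libraries (the field gives MET/CAT for KO GFP and GFP for WT MET/CAT), and the titles, which match the column names of the data, were used.

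In the liver, long-chain fatty acids are activated to acyl-CoA, carried into mitochondria as carnitine esters and shortened by repeated cycles of beta-oxidation. The electrons taken off in the first step of each cycle pass through electron transfer flavoprotein to the respiratory chain, and much of the resulting acetyl-CoA is made into ketone bodies during fasting. Very long chains are first shortened in peroxisomes. PPARA, activated by fatty acids, raises the transcription of many genes at each of these steps and of the secreted hormone FGF21.

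The 10 libraries in which whole reads could be recovered held 18208879 to 24247520 reads in genes, and a count of 0 allowed a value of at most 2.26 to 3.61 normalized reads, depending on the library (3 reads, counting error only). Sirt2, the targeted gene, had 248, 234 and 201 in KO MET/CAT livers, 1068, 943 and 908 in WT MET/CAT livers, 233, 183 and 126 in KO GFP livers, and 824, 924 and 726 in WT GFP livers, and the KO and WT libraries did not overlap. Its log2 difference was -2.09 (SE 0.23) in MET/CAT livers and -2.22 (SE 0.23) in GFP livers (limma, adjusted p = 0.00394 and 0.00189), and the call was lost in MET/CAT livers without replicate 3 of KO MET/CAT (-2.005, adjusted p = 0.0524) and in GFP livers with a fit limited to the 6 libraries compared (-2.224, adjusted p = 0.101). The remaining Sirt2 reads cannot be assigned to a cell type in whole liver, where fewer cells of a type and less RNA per cell cannot be told apart. Hepatocyte marker genes summed to 2181731 to 3571446 normalized reads in every library, while 5 adipocyte markers summed to at most 11.97, with Ucp1 and Lep at 0 throughout. The sum of 4 skeletal or cardiac muscle markers varied between libraries, from 6.02 in KO MET/CAT 1 to 937 in WT MET/CAT 2. Replicate 3 of KO GFP stood apart, at -89.0 on principal component 1, which held 22.0% of the variance, against -33.2 to 52.8 for the other 11. The summed level of 13 Kupffer cell and macrophage markers was 1899 to 5861 in KO GFP livers, against 9435 to 12504 in WT GFP livers, and that of 7 neutrophil markers was 312 to 3060 in MET/CAT livers, against 57.0 to 175 in GFP livers. That of 8 T, NK and B cell markers was 49.7 to 182 in KO GFP and 193 to 256 in WT GFP livers. In KO MET/CAT livers it was 110 to 185, and in WT MET/CAT livers 78.9 to 152. Their part in the results below was not tested.

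The 37 genes spanned a wide range of levels. Per kilobase of the longest annotated transcript, the WT GFP mean ran from 151294 ± 42488 normalized reads for Fabp1, the fatty acid binding protein of hepatocytes, through 15454 ± 2587 for Acaa2 and 11435 ± 2102 for Acaa1b, both thiolases, to 15.1 for Ppargc1a, 13.7 for Pdk4 and 9.99 for Fgf21 (SD, n = 3). Over the 12 libraries the coefficient of variation was lowest for Etfa (9.88%), Hadha (11.6%) and Hsd17b4 (12.9%) and highest for Etfb (82.5%), Ppara (81.6%) and then Fgf21. Of these, Fgf21 was at a low level throughout, and Ppara was far higher in 1 library than in the rest.

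**Figure D1:**
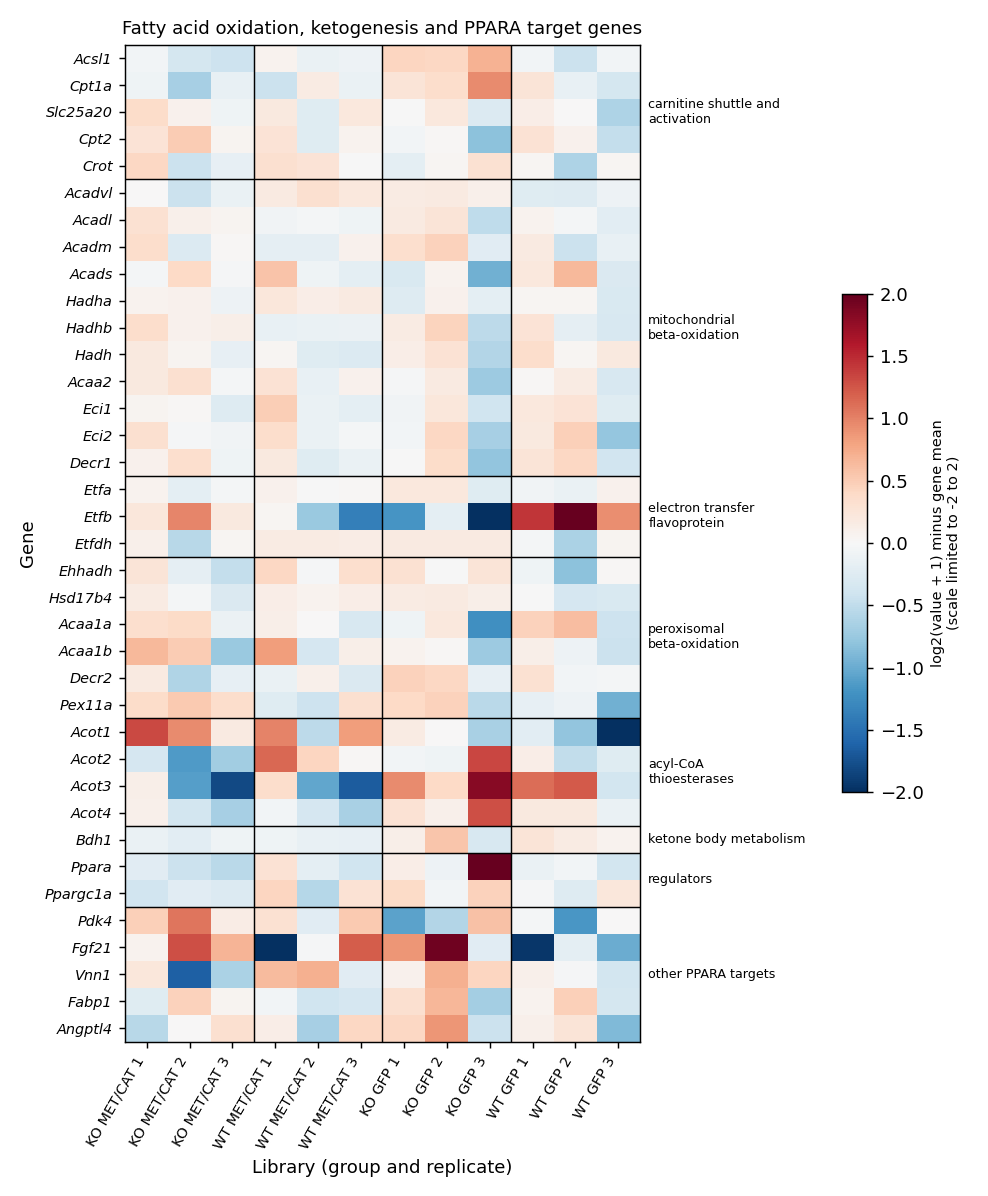
Normalized read values of the 37 genes in the 12 libraries, each drawn as the log2 difference from the mean of that gene over all libraries. Rows are genes grouped by role and columns are libraries grouped by genotype and plasmid. Etfb, Acot3, Acot1, Ppara and Fgf21 show the strongest colours, and replicate 3 of KO GFP differs from its own group for many genes.

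Over the 37 genes as a group, the median differences between groups lay within 0.17 of 0. Single genes differed in both directions, from -2.71 to 1.91 for KO GFP against WT GFP. The median log2 difference over the 37 genes was 0.05 for MET/CAT against GFP averaged over genotypes (0.02 over all genes tested) and 0.04 for KO against WT averaged over plasmids (-0.05 over all genes tested). Within single groups the medians were -0.11 for KO MET/CAT against KO GFP (0.05 over all genes), 0.09 for WT MET/CAT against WT GFP (-0.01), -0.01 for KO MET/CAT against WT MET/CAT (0.00) and 0.17 for KO GFP against WT GFP (-0.07). These comparisons share libraries and are not independent of each other.

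For MET/CAT against GFP averaged over genotypes, 1 of the 37 genes passed an adjusted p of 0.05 (limma, Benjamini-Hochberg over all genes tested), the thioesterase gene Acot3, which fell; this is 2.70% of the members, against 3.80% of all genes tested. At an unadjusted p under 0.05 there were 6 members, or 16.2%, against 17.9% of all genes tested. The share of members called was thus near or below that of all genes. No member had MET/CAT and GFP libraries without overlap across both genotypes, against 2.49% of all genes tested.

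Within KO livers, MET/CAT against GFP gave 0 members past the adjusted threshold (1.25% of all genes tested), with 9 at an unadjusted p under 0.05 (24.3% of members, against 20.3% of all genes tested). The edgeR quasi-likelihood test called 1 member there, Acsl1 (2.70% of members, against 1.46% of all genes tested), and DESeq2 called 6 (16.2%, against 6.69%). Genes to which DESeq2 gave no adjusted p count as not called in these shares. The KO MET/CAT and KO GFP libraries did not overlap for 11 members, of which 8 were lower and 3 higher in KO MET/CAT livers (21.6% and 8.11%, against 10.7% and 14.4% of all genes tested). The 8 with lower values were Acsl1, Cpt1a, Acadvl, Etfdh, Acot2, Acot3, Ppara and Ppargc1a. Within WT livers, MET/CAT against GFP also gave 0 members with limma (0.339% of all genes tested) and with edgeR (0.526%), 2 with DESeq2 (5.41%, against 4.17%) and 5 at an unadjusted p under 0.05 (13.5%, against 14.8%). There, 4 members were higher and 3 lower without overlap (10.8% and 8.11%, against 10.5% and 10.3%).

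For the deletion, no member passed the adjusted threshold in limma or in edgeR, which also called 0.00721% of all genes tested in each of the 3 comparisons. KO MET/CAT against WT MET/CAT gave 0 members (0.00721% of all genes tested, which is Sirt2 alone) and 4 at an unadjusted p under 0.05 (10.8%, against 7.76%), and DESeq2 gave 0 (0.245% of all genes tested). KO GFP against WT GFP gave 0 members (0.00721%, again Sirt2 alone) and 5 at an unadjusted p under 0.05 (13.5%, against 15.5%), and DESeq2 gave 2, Etfb and Acsl1 (5.41%, against 0.872%). Averaged over plasmids, KO against WT gave 0 members (0.0144% of all genes tested) and 3 at an unadjusted p under 0.05 (8.11%, against 8.11%), with 0 in DESeq2 (0.281% of all genes tested), and for no member did all KO and all WT libraries separate (0.382% of all genes tested). In MET/CAT livers 8 members did not overlap between genotypes, 4 higher and 4 lower in KO (10.8% each, against 6.82% and 7.01% of all genes tested), and in GFP livers 5 did not, 4 higher and 1 lower in KO (10.8% and 2.70%, against 9.15% and 13.0%).

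The difference between genotypes was also compared between plasmids, as the KO minus WT difference in MET/CAT livers less that in GFP livers. Its median was -0.19 over the 37 genes (quartiles -0.62 and 0.21), against 0.04 over all genes tested. For this difference of differences 0 members passed the adjusted threshold in limma (0.0% of all genes tested) or in edgeR, while DESeq2 called 4 (10.8%, against 1.22% of all genes tested) and 9 had an unadjusted p under 0.05 (24.3%, against 15.5% of all genes tested). Of those 9, Etfb had a positive value and 8 a negative one: Acsl1, Acadvl, Acot2, Vnn1, Ehhadh, Etfdh, Hsd17b4 and Cpt1a.

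**Figure D2:**
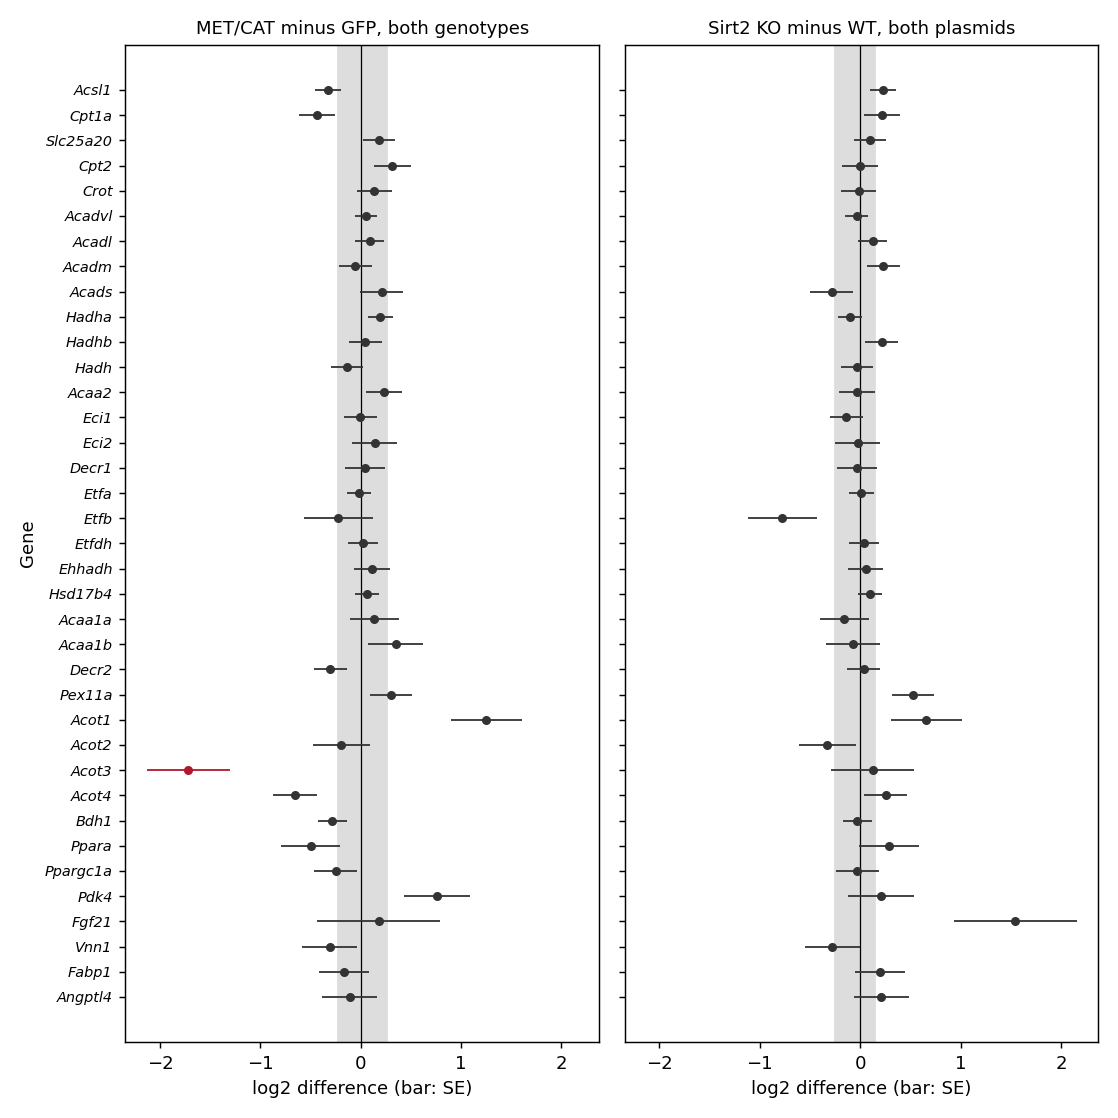
Fitted log2 differences of the 37 genes for MET/CAT minus GFP averaged over genotypes (left) and KO minus WT averaged over plasmids (right), on the scale of log2(value + 1), with bars of 1 standard error. The grey band spans the middle of all genes tested, from the lower to the upper quartile, and Acot3, in red, is the member that passed the adjusted threshold.

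Acsl1 makes long-chain acyl-CoA in the liver, Cpt1a is the rate-limiting carnitine palmitoyltransferase of the outer mitochondrial membrane, Slc25a20 exchanges acylcarnitine across the inner membrane, Cpt2 restores acyl-CoA inside it, and Crot makes carnitine esters in peroxisomes. Acsl1 had 8043, 6548 and 6281 in KO MET/CAT livers, 8817, 7639.7 and 7832 in WT MET/CAT livers, 11231, 11128 and 13541 in KO GFP livers, and 8061, 6237 and 8042 in WT GFP livers. The KO GFP libraries were the 3 highest of the 12, above every WT GFP and every MET/CAT library. The log2 difference was -0.79 (SE 0.18) for KO MET/CAT against KO GFP and 0.69 (SE 0.18) for KO GFP against WT GFP, with limma adjusted p of 0.0527 and 0.272. In WT livers, MET/CAT against GFP differed by 0.13 (SE 0.18). Over 24 other settings of the analysis, 7 called Acsl1 lower in KO MET/CAT than in KO GFP, and its adjusted p ran between 0.000951 and 0.167.

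Cpt1a had 4070.1, 2741 and 3923 in KO MET/CAT livers, 3213, 4836 and 3948 in WT MET/CAT livers, 5162, 5509.8 and 8391 in KO GFP livers, and 5205, 3913 and 3387 in WT GFP livers. The KO GFP libraries were again high, with replicate 3 the highest of all 12, and overlapped only with 1 WT GFP library. The log2 difference was -0.82 (SE 0.25) for KO MET/CAT against KO GFP and 0.60 (SE 0.25) for KO GFP against WT GFP (limma, adjusted p = 0.115 and 0.297). Over 24 other settings the difference of KO GFP against WT GFP ran between 0.103 and 0.844, and 0 of them called it. That of KO MET/CAT against KO GFP ran between -1.08 and -0.574, and 1 of them called it. Cpt2 had a difference of the other sign within KO livers, where the MET/CAT libraries lay above all GFP libraries, with a log2 difference of 0.56 (SE 0.26) (limma, unadjusted p = 0.0472 and adjusted p = 0.239), while KO MET/CAT against KO GFP gave 0.14 (SE 0.23) for Slc25a20 and -0.11 (SE 0.25) for Crot, with overlapping libraries. None of these 3 genes passed the adjusted threshold in any of the 7 comparisons with limma.

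The 11 genes of mitochondrial beta-oxidation had coefficients of variation between 11.6% (Hadha) and 28.9% (Acads). They cover the acyl-CoA dehydrogenases for very long, long, medium and short chains (Acadvl, Acadl, Acadm, Acads), the trifunctional protein (Hadha, Hadhb), the short-chain hydroxyacyl-CoA dehydrogenase Hadh, the thiolase Acaa2, and the enzymes that handle unsaturated chains (Eci1, Eci2, Decr1). None passed the adjusted threshold in any of the 7 comparisons with limma, and their median log2 difference was 0.05 for MET/CAT against GFP and -0.03 for KO against WT, both averaged. The averaged MET/CAT difference lay between -0.14 (Hadh) and 0.23 (Acaa2).

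Within this group the difference of differences was farthest from 0 for Acadvl. It had 3849.8, 2867 and 3512 in KO MET/CAT livers, 4358, 4793 and 4444 in WT MET/CAT livers, 4289, 4369.6 and 4128 in KO GFP livers, and 3257, 3212 and 3581 in WT GFP livers. The KO libraries were all below the WT libraries in MET/CAT livers and all above them in GFP livers. The log2 difference between KO and WT was -0.42 (SE 0.16) in MET/CAT livers and 0.35 (SE 0.16) in GFP livers, and the difference of these differences was -0.77 (SE 0.23) (limma, adjusted p = 0.265). Of the exon bases of Acadvl, 42.9% lie opposite exons of Dvl2, so reads of the pair cannot be told apart unless strand was used in counting, which the sources used here do not give. Dvl2 averaged 106 normalized reads over the 12 libraries.

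Electron transfer flavoprotein is a dimer of the products of Etfa and Etfb, and Etfdh encodes the dehydrogenase that passes its electrons to ubiquinone. Etfa had 6737, 5629.5 and 6251 in KO MET/CAT livers, 6805, 6372 and 6523 in WT MET/CAT livers, 7439, 7392 and 5447 in KO GFP livers, and 6083, 5821 and 6792 in WT GFP livers, with every group overlapping every other. Etfb, its partner, had 352, 588 and 342 in KO MET/CAT livers, 306, 178 and 116 in WT MET/CAT livers, 131, 261 and 57.9 in KO GFP livers, and 808, 1228 and 573 in WT GFP livers. The WT GFP libraries were 3 of the 4 highest, all above every KO GFP and WT MET/CAT library, and the KO MET/CAT libraries lay above every WT MET/CAT and every KO GFP library.

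For Etfb the log2 difference between KO and WT was 1.16 (SE 0.49) in MET/CAT livers and -2.71 (SE 0.49) in GFP livers, and that between MET/CAT and GFP was 1.71 (SE 0.49) in KO and -2.16 (SE 0.49) in WT livers. None of these passed the adjusted threshold with limma, whose adjusted p was 0.605, 0.116, 0.0973 and 0.0679 in that order. The difference of differences, 3.87 (SE 0.69), was the most positive of the 37 genes and also missed the threshold (limma, adjusted p = 0.19). Over 23 other settings it ran between 3.11 and 4.39, and 4 of them called it. The count of Etfb is uncertain, because 678 of its 1164 exon bases (58.2%) are shared on the same strand with the annotated genes Gm45233 and Mir7051, which leaves 486 bases of its own. Gm45233 is listed at 0 in all libraries, and which reads of Etfb were counted cannot be read from the table.

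Etfdh had 2499.9, 1591 and 2405 in KO MET/CAT livers, 2625, 2625 and 2593 in WT MET/CAT livers, 2632, 2646 and 2643 in KO GFP livers, and 2269, 1511 and 2436 in WT GFP livers. The KO libraries lay below the WT libraries in MET/CAT livers and above them in GFP livers, by log2 differences of -0.30 (SE 0.21) and 0.38 (SE 0.21). Their difference was -0.68 (SE 0.30) (limma, adjusted p = 0.308). The 3 KO GFP values lay between 2632 and 2646, while replicate 2 of WT GFP and replicate 2 of KO MET/CAT were the lowest of their groups.

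**Figure D3:**
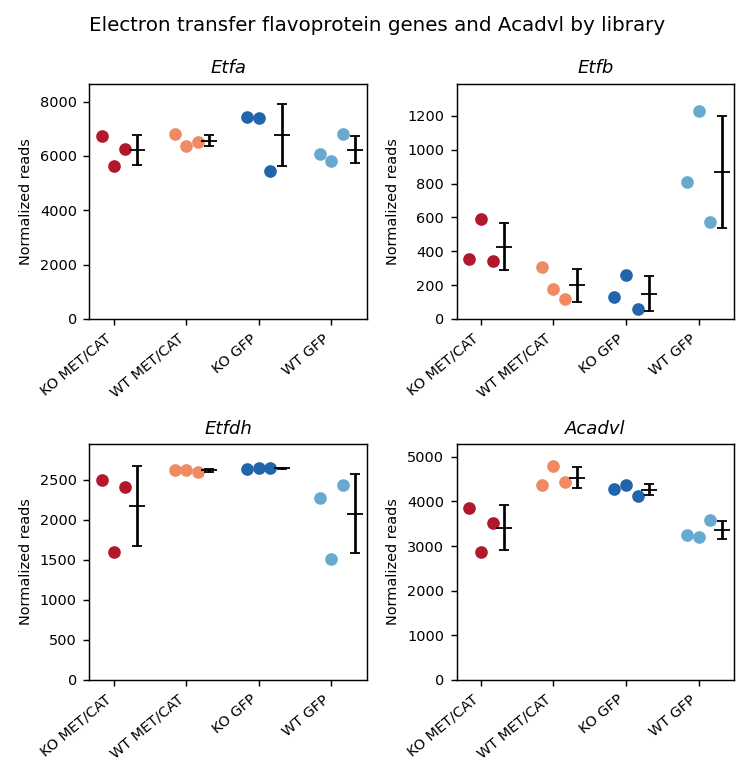
Normalized reads of Etfa, Etfb, Etfdh and Acadvl by library, with 1 point per library, the group mean and a bar of 1 SD (n = 3). Each vertical axis starts at 0. Etfb is high in the WT GFP libraries, while the groups overlap for Etfa.

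The peroxisomal branch was represented by the bifunctional enzymes Ehhadh and Hsd17b4, the thiolases Acaa1a and Acaa1b, the dienoyl-CoA reductase Decr2 and Pex11a, a membrane protein of peroxisome division. None passed the adjusted threshold in any of the 7 comparisons with limma. Pex11a had 1775, 1986 and 1769 in KO MET/CAT livers, 1163, 1032 and 1721 in WT MET/CAT livers, 1820.5, 1908 and 947 in KO GFP livers, and 1231, 1279 and 711 in WT GFP livers. The KO libraries lay above the WT libraries in MET/CAT livers, and in GFP livers 2 of the 3 KO libraries did. The averaged difference of KO against WT was 0.52 (SE 0.21) (limma, adjusted p = 0.579), close to the same value with either plasmid (0.53 (SE 0.30) in MET/CAT and 0.52 (SE 0.30) in GFP livers).

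Acaa1a and Acaa1b are near copies of each other, with 360 identical stretches of 100 bases between their exons (7.21% of those in Acaa1a and 19.3% of those in Acaa1b), so reads from these stretches may have been assigned to neither. Acaa1a ranged between 2669 and 9599 normalized reads and Acaa1b between 12500.0 and 37334 over the 12 libraries. For both genes, the lowest KO GFP value was in replicate 3. Ehhadh differed by -0.38 (SE 0.25) between KO and WT in MET/CAT livers and by 0.49 (SE 0.25) in GFP livers, and Hsd17b4 by -0.17 (SE 0.17) and 0.36 (SE 0.17), with overlapping libraries for Ehhadh in both.

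The acyl-CoA thioesterases release free fatty acids from acyl-CoA. In the mouse, Acot1 is cytosolic, Acot2 mitochondrial, and Acot3 and Acot4 peroxisomal. Their genes lie side by side on the plus strand of chromosome 12 (GRCm38, GENCODE M21), in the order Acot2 at chr12:83987861-83993873, Acot1 at chr12:84009490-84018371, Acot4 at chr12:84038379-84048601 and Acot3 at chr12:84052144-84060402. The 250 bases before the transcription start of Acot1, Acot3 and Acot4 are shown first. These 3 were among the 4 members with the smallest p for MET/CAT against GFP averaged over genotypes. Only Acot3 was called, and their averaged differences were not all of one sign. The start region of Fabp1, the most highly expressed member, is added because it holds the only match to the spaced repeat described next. Capitals mark matches, on either strand, to AGGTCA, the core element of nuclear receptors such as PPARA, or to a loose direct repeat, AGGNCA and AGGNCA with 1 base of any kind between them. Sequences are from RefSeq (GRCm38.p6) and run 5′ to 3′ on the plus strand, at chr12:84009252-84009501 for Acot1, chr12:84051894-84052143 for Acot3, chr12:84038129-84038378 for Acot4 and chr6:71199629-71199878 for Fabp1.
Acot1: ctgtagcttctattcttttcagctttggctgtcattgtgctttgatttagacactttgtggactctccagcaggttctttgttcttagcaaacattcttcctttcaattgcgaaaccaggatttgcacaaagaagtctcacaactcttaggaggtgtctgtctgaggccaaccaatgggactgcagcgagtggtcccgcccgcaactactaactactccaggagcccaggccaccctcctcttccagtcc
Acot3: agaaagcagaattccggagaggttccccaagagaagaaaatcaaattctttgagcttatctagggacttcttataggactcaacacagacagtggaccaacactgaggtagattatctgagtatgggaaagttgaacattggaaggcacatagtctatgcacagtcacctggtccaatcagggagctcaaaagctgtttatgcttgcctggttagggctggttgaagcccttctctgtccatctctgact
Acot4: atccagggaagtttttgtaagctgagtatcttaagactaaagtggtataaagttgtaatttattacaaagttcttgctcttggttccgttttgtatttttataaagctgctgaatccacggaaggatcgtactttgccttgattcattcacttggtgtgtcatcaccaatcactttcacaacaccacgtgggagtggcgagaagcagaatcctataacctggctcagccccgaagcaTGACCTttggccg
Fabp1: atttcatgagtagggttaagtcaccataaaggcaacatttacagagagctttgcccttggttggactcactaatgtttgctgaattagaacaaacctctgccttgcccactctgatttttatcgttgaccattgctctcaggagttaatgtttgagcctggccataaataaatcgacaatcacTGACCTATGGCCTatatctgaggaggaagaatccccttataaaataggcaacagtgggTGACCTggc

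Of the 37 genes, 32 had at least 1 RefSeq window of 250 bases before and 50 after the start. AGGTCA, on either strand, was found in 6 of these genes (18.8%), in Cpt1a, Acadvl, Acadm, Acot3, Acot4 and Fabp1, against 15.5% of the 10521 genes tested that had a window. In Acot3 the match lies 18 bases after the start used here, and so outside the sequence shown, and 11 bases after a second annotated start. In Acot4 it lies 13 bases before the start. The window of Acot2, whose sequence is not shown, held 0 matches. The loose direct repeat was found in Fabp1 alone, 67 bases before its start, which is 3.12% of members against 0.361% of genes tested. This match overlaps 1 of the 2 AGGTCA matches there. The strict repeat, AGGTCA and AGGTCA with 1 base between them, was in 0 of the 32 genes, against 0.067% of genes tested. These are matches of letters in a short window and say nothing of binding.

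Acot3 fell in MET/CAT livers. It had 782, 335 and 207 in KO MET/CAT livers, 923, 351 and 227 in WT MET/CAT livers, 1385, 955 and 2567 in KO GFP livers, and 1566, 1699.8 and 561 in WT GFP livers. In KO livers all 3 MET/CAT libraries were below all 3 GFP libraries, and in WT livers 2 were, with replicate 1 of WT MET/CAT above replicate 3 of WT GFP. Group means were 441 ± 302 in KO MET/CAT, 500.3 ± 371 in WT MET/CAT, 1636 ± 835 in KO GFP and 1276 ± 622 in WT GFP livers (SD, n = 3 each). The averaged log2 difference of MET/CAT against GFP was -1.72 (SE 0.41), with a limma adjusted p of 0.0348. It was -1.99 (SE 0.59) in KO and -1.45 (SE 0.59) in WT livers, neither past the threshold alone (limma, adjusted p = 0.106 and 0.274).

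The call on Acot3 held in 15 of 23 other settings, with log2 differences between -2.08 and -1.50 and limma, edgeR or DESeq2 adjusted p between 0.000327 and 0.0963. It was lost without replicate 1 or 2 of WT GFP, 1 or 3 of KO GFP, 2 or 3 of WT MET/CAT, or 2 or 3 of KO MET/CAT, with adjusted p of 0.0646 (without KO GFP 3) to 0.0963 (without WT GFP 1). Of the exon bases of Acot3, 20.6% overlap other annotated genes on either strand.

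Acot1, which lies on the far side of Acot4 from Acot3, was higher with MET/CAT in both genotypes but did not pass the threshold. It had 1948, 1508 and 879 in KO MET/CAT livers, 1556, 541 and 1388 in WT MET/CAT livers, 876, 782 and 497 in KO GFP livers, and 675, 449 and 159 in WT GFP livers. The KO MET/CAT libraries lay above all 3 KO GFP libraries, the lowest of them at 879 against a highest KO GFP value of 876, and in WT livers 2 of the 3 MET/CAT libraries lay above every GFP library. The averaged log2 difference of MET/CAT against GFP was 1.25 (SE 0.36) (limma, adjusted p = 0.0694), and 4 of 23 other settings called it. The averaged differences of Acot1 and Acot3 thus had opposite signs in the same libraries. Acot1 and Acot3 share 104 identical stretches of 100 bases (2.70% of those in Acot1).

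Acot4 had 406, 291 and 239 in KO MET/CAT livers, 362, 299 and 240.2 in WT MET/CAT livers, 461, 405 and 927 in KO GFP livers, and 434, 434 and 345 in WT GFP livers. Its averaged log2 difference of MET/CAT against GFP was -0.65 (SE 0.21) (limma, adjusted p = 0.117), in the same direction as that of Acot3, and replicate 3 of KO GFP held its highest value, as it did for Acot3. Acot2 had 97.5, 55.4 and 75.4 in KO MET/CAT livers, 275, 166 and 125 in WT MET/CAT livers, 118, 116 and 311 in KO GFP livers, and 135, 87.3 and 104 in WT GFP livers. The KO MET/CAT libraries of Acot2 lay below every WT MET/CAT and every KO GFP library, and overlapped with the WT GFP libraries. The log2 difference between KO and WT was -1.25 (SE 0.41) in MET/CAT livers and 0.60 (SE 0.41) in GFP livers (limma, adjusted p = 0.502 and 0.458), and their difference was -1.85 (SE 0.57) (adjusted p = 0.265). Acot2 shares 359 identical stretches of 100 bases with Acot1 (17.1% of its own and 9.32% of those of Acot1), so its count is uncertain.

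**Figure D4:**
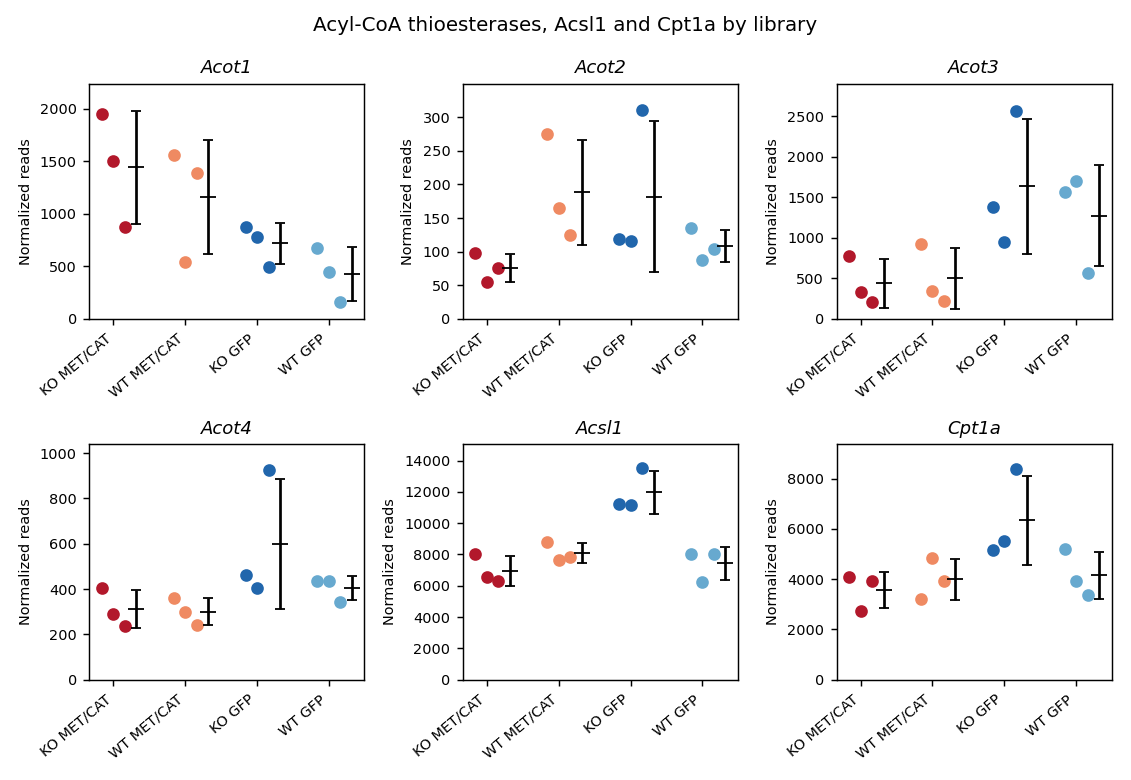
Normalized reads of Acot1, Acot2, Acot3 and Acot4 and of Acsl1 and Cpt1a by library, with 1 point per library, the group mean and a bar of 1 SD (n = 3). Each vertical axis starts at 0. Acot3 is lower and Acot1 higher in most MET/CAT libraries, Acsl1 is highest in the KO GFP libraries, and replicate 3 of KO GFP is the highest library for Acot2, Acot3 and Acot4.

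Bdh1, the mitochondrial dehydrogenase that interconverts the main ketone bodies, was the member closest to ketogenesis itself. It had 4959, 4684 and 5133 in KO MET/CAT livers, 5103, 4904 and 4836 in WT MET/CAT livers, 5931, 7999 and 4342 in KO GFP livers, and 6523, 6097 and 5705 in WT GFP livers. Averaged over genotypes it differed by -0.28 (SE 0.14) between MET/CAT and GFP livers (limma, adjusted p = 0.319), and by -0.03 (SE 0.14) between KO and WT livers averaged over plasmids.

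Ppara itself had 501, 434 and 400.2 in KO MET/CAT livers, 712, 514 and 445 in WT MET/CAT livers, 638, 543 and 2415 in KO GFP livers, and 533, 563 and 451 in WT GFP livers. The library that stood apart, replicate 3 of KO GFP, held 2415, while the other 11 lay between 400.2 and 712. The log2 difference of KO MET/CAT against KO GFP was -1.09 (SE 0.42) (limma, adjusted p = 0.178), and the KO MET/CAT libraries were below all 3 KO GFP libraries. KO against WT differed by -0.30 (SE 0.42) in MET/CAT livers and by 0.88 (SE 0.42) in GFP livers. Ppargc1a, the coactivator of PPARA, had 74.7, 83.7 and 80.7 in KO MET/CAT livers, 132, 65.4 and 120.1 in WT MET/CAT livers, 128, 94.1 and 136 in KO GFP livers, and 96.7, 81.6 and 114 in WT GFP livers. Its KO MET/CAT libraries were also below all 3 KO GFP libraries, with a log2 difference of -0.56 (SE 0.30) (limma, adjusted p = 0.312).

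The 5 other targets of PPARA had averaged differences of both signs between MET/CAT and GFP livers. Fgf21, a hormone secreted by the liver in fasting, was low, and near the detection limit in its lowest libraries. It had 19.3, 46.0 and 29.7 in KO MET/CAT livers, 1.99, 17.9 and 43.4 in WT MET/CAT livers, 34.6, 73.0 and 15.4 in KO GFP livers, and 3.99, 15.9 and 8.66 in WT GFP livers. The value of WT MET/CAT replicate 1 is under the level that a count of 0 allows. KO against WT differed by 1.55 (SE 0.61) averaged over plasmids (limma, adjusted p = 0.579), with overlapping libraries under both plasmids. Vnn1, a pantetheinase and a sensitive PPARA target in mouse liver, had 503, 138 and 277 in KO MET/CAT livers, 671, 707 and 370.2 in WT MET/CAT livers, 455, 705 and 579 in KO GFP livers, and 463, 426 and 333 in WT GFP livers. It differed between KO and WT by -1.06 (SE 0.39) in MET/CAT and 0.50 (SE 0.39) in GFP livers (limma, adjusted p = 0.56 and 0.517).

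Pdk4, the kinase that turns off pyruvate dehydrogenase when fat is burnt, lay between 26.1 and 127 normalized reads, and MET/CAT against GFP averaged 0.76 (SE 0.33) (limma, adjusted p = 0.238). Angptl4, an inhibitor of lipoprotein lipase, lay between 1205 and 4104, and differed by -0.11 (SE 0.27) between MET/CAT and GFP livers. Fabp1 differed by -0.17 (SE 0.25) between MET/CAT and GFP livers and by 0.19 (SE 0.25) between KO and WT livers. None of these 5 targets was called in any of the 7 comparisons with limma.

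Replicate 3 of KO GFP carried many of the extremes. It was the lowest of the 12 libraries for 13 of the 37 genes and the highest for 7, against 24.5% and 18.5% of all genes tested. Ranked within that library, the deviation of the 37 genes was higher for longer transcripts (Spearman's rho 0.455 over the 37 genes, and 0.471 over all genes with a length), which is a description across genes of 1 library. In the other libraries rho over the 37 genes ran from -0.362 (KO MET/CAT 2) and -0.288 (KO MET/CAT 3) to 0.133 (WT GFP 3). Over all genes with a length it ran there from -0.359 (WT GFP 2) to 0.192 (WT MET/CAT 2). The 7 members with their highest value in replicate 3 of KO GFP, Ppargc1a, Acot4, Acsl1, Cpt1a, Acot3, Ppara and Acot2, had longest transcripts of 2196 (Acot2) to 6464 bases, with a median of 4317, against a median of 2751 over all 37. The 13 with their lowest value there had a median of 2023 bases and ran from 553 (Fabp1) to 4388 (Hadhb). These 13 were Hadhb, Hadh, Acaa1a, Bdh1, Decr1, Cpt2, Acads, Acadl, Acaa2, Etfa, Eci1, Etfb and Fabp1, so the length ranges of the high and the low members overlapped. Without this library the averaged difference of Acot3 between MET/CAT and GFP was -1.52, with an adjusted p of 0.0646.

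Of 87 other genes of these pathways and of lipid storage, 83 were measured, and Acot5, Cpt1b, Cidea and Ucp3 were below the minimum. For MET/CAT against GFP averaged over genotypes, limma called 4 of the 83 (1 higher and 3 lower), or 4.82%, against 3.80% of all genes tested. For KO MET/CAT against KO GFP it called 2 (1 higher and 1 lower), or 2.41%, against 1.25%. It called 0 in the other 5 comparisons. At an unadjusted p under 0.05 there were 18 of the 83 for WT MET/CAT against WT GFP (21.7%, against 14.8% of all genes tested), 2 for KO MET/CAT against WT MET/CAT (2.41%, against 7.76%) and 12 for KO GFP against WT GFP (14.5%, against 15.5%). There were 7 for KO against WT averaged over plasmids (8.43%, against 8.11%) and 8 for the difference of differences (9.64%, against 15.5%). In these 5 comparisons edgeR called 1 of the 83, Plin5 in WT MET/CAT against WT GFP (1.20%, against 0.526% of all genes tested), while DESeq2 called 7 there (8.43%, against 4.17%). DESeq2 called 1 (Eci3, 1.20%) each for KO GFP against WT GFP and for KO against WT averaged over plasmids (against 0.872% and 0.281% of all genes tested), and 0 in the other 2.

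Plin5, a coat protein that ties lipid droplets to mitochondria, rose with MET/CAT. It had 2801, 3458 and 3067 in KO MET/CAT livers, 3658, 943 and 2278 in WT MET/CAT livers, 988, 1194 and 677 in KO GFP livers, and 540.5, 777 and 435 in WT GFP livers. Every KO MET/CAT library was above every GFP library, and in WT livers all 3 MET/CAT libraries were above all 3 GFP libraries. The averaged log2 difference was 1.77 (SE 0.28) (limma, adjusted p = 0.00371), and it was called in all 23 other settings. In KO livers alone it was 1.74 (SE 0.39) (limma, adjusted p = 0.0461), a call kept in 13 of 24 other settings and lost on leaving out any library but replicate 1 or 2 of WT MET/CAT (adjusted p up to 0.147, without KO GFP 3).

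Lpin2, a phosphatidate phosphatase of glycerolipid synthesis, fell with MET/CAT. It had 1421, 2912 and 2250.3 in KO MET/CAT livers, 2258, 1982 and 2475 in WT MET/CAT livers, 4069, 4112 and 4972 in KO GFP livers, and 3273, 2587 and 3269.8 in WT GFP livers. The MET/CAT libraries lay below the GFP libraries of the same genotype in both genotypes, with log2 differences of -0.75 (SE 0.17) on average and -1.05 (SE 0.23) in KO livers (limma, adjusted p = 0.024 and 0.0458). Abcd2, a transporter of very long chain acyl-CoA into peroxisomes, fell with MET/CAT by a log2 difference of -0.90 (SE 0.21) (limma, adjusted p = 0.0272), with 804, 431 and 688 in KO MET/CAT livers, 858, 973 and 531 in WT MET/CAT livers, 1106, 1347 and 1998 in KO GFP livers, and 1123, 1019 and 1338 in WT GFP livers. All 6 MET/CAT libraries were below all 6 GFP libraries. Acot12, a cytosolic acetyl-CoA hydrolase, fell with MET/CAT by a log2 difference of -0.44 (SE 0.11) (limma, adjusted p = 0.049), with 1622, 1313 and 1439 in KO MET/CAT livers, 1171, 1193 and 1089.6 in WT MET/CAT livers, 1878, 1831 and 1682 in KO GFP livers, and 1779, 1891 and 1489.8 in WT GFP livers. The averaged call on Lpin2 was lost without replicate 1 or 3 of WT GFP or 2 of WT MET/CAT (adjusted p up to 0.0692, without WT GFP 1), and its call in KO livers on leaving out any library but WT MET/CAT 1 or KO MET/CAT 2 (up to 0.127, without KO GFP 3), with only the 6 KO libraries fitted (0.122) and with the length trend removed (0.0617). That on Abcd2 was lost without replicate 1 or 3 of WT GFP, 3 of WT MET/CAT or 2 of KO MET/CAT (up to 0.0674, without WT MET/CAT 3). That on Acot12 was lost on leaving out any library but replicate 3 of WT GFP or of KO GFP (up to 0.13, without WT GFP 1), and with any value above 0 in 3 libraries as the filter (0.063).

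**Figure D5:**
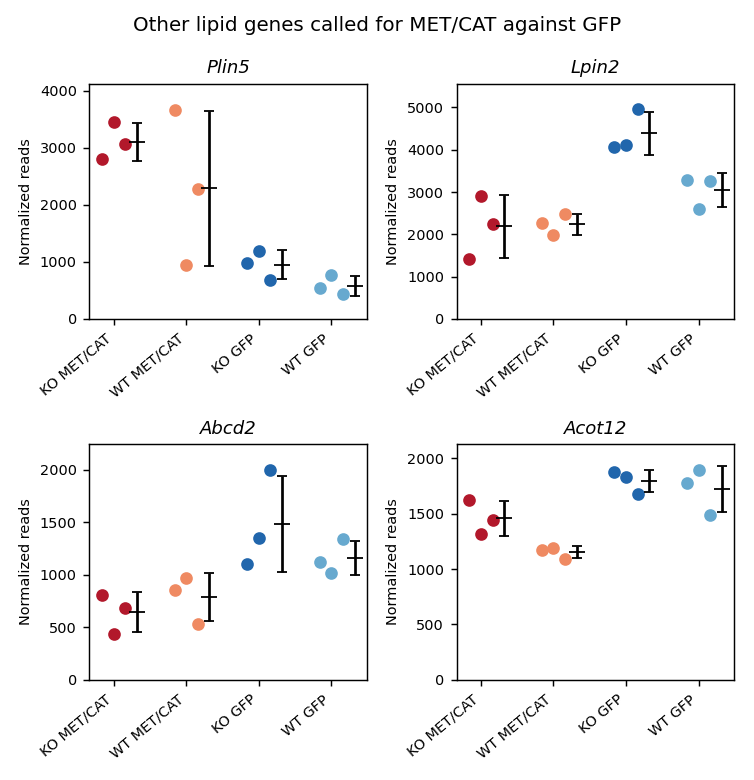
Normalized reads of Plin5, Lpin2, Abcd2 and Acot12 by library, with 1 point per library, the group mean and a bar of 1 SD (n = 3). Each vertical axis starts at 0. Plin5 is higher, and Lpin2, Abcd2 and Acot12 lower, in MET/CAT than in GFP libraries of the same genotype.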

How the data were processed

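Whole-liver RNA of 12 mouse samples was sequenced, and p-values cover only the variation among these libraries, which the labels do not tie to separate mice. HISAT2 2.0.4, HTSeq 0.11.2 and the build GRCm38 are named in the submitters' processing notes. Neither the normalization tool nor the kit and strand setting is given in the sources used here. The table the authors deposited holds a signal for each gene, read counts that the authors divided by 1 factor per library: 100% of the values were whole multiples of 1 step within 0.01 reads. Recovery of whole reads is claimed for 10 libraries, since in WT GFP 1 and WT MET/CAT 1 the step is too near 1. For edgeR and DESeq2 the values of all 12 libraries, these 2 included, were divided by their steps and rounded. On these edgeR called 619 genes for MET/CAT against GFP averaged over genotypes, where limma called 527.

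Genes that reached 10 normalized reads in 3 or more libraries were tested on log2(value + 1), a scale that understates changes of low genes, with limma 3.58.1 (trend) in R 4.3.3, fitted as 4 group means over all 12 libraries, with Benjamini-Hochberg adjustment over 13871 genes and a threshold of 0.05. The script was tested on simulated data. edgeR 4.0.16 and DESeq2 1.42.0, other pseudocounts, filters and scalings, library weights, removal of the length trend, a replicate block and leaving out each library were tried. The members and the gene lists were chosen with earlier results of these data known. Values are given for each member called or among the 4 smallest p in any comparison, and for Cpt1a, Ppara, Ppargc1a and Fgf21; Etfa, Etfdh and Bdh1 were added after their values were seen. Other pathway genes are named if called or among the 2 smallest p. Positions and exon sharing are from GENCODE M21 and promoters from RefSeq.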

Additional observations from a re-analysis of the deposited data

Results flagged for a closer look

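For 3 of the 37 genes every KO library moved one way from the WT libraries in MET/CAT livers and the other way in GFP livers (8.11%, against 1.68% of all genes tested). The KO minus WT difference in MET/CAT livers less that in GFP livers was 3.87 for Etfb, -0.77 for Acadvl and -0.68 for Etfdh (log2). Etfb was higher in KO MET/CAT livers and lower in KO GFP livers, and Acadvl and Etfdh were the reverse. The difference of differences was tested in limma and missed the threshold over all genes, with adjusted p of 0.19 for Etfb, 0.265 for Acadvl and 0.308 for Etfdh. Etfb shares 58.2% of its exon bases with other annotated genes on its strand, and Acadvl 42.9% on the opposite strand. The KO GFP libraries also held the lower Kupffer cell and macrophage marker sums (1899 to 5861, against 9435 to 12504 in WT GFP livers), and the part of these in the 3 differences was not tested.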

How the results depend on the processing

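The counts of members called ran as follows, for KO GFP against WT GFP, WT MET/CAT against WT GFP, KO MET/CAT against KO GFP, MET/CAT against GFP averaged over genotypes, and the difference of differences, where limma gave 0, 0, 0, 1 and 0. Library quality weights, which gave KO GFP 3 a weight of 0.24 and WT GFP 1 one of 7.25, called 10, 4, 6, 7 and 3 (27.0%, 10.8%, 16.2%, 18.9% and 8.11% of members, against 33.0%, 18.9%, 11.8%, 17.1% and 9.91% of all genes tested). DESeq2 called 2, 2, 6, 3 and 4 (5.41%, 5.41%, 16.2%, 8.11% and 10.8%, against 0.872%, 4.17%, 6.69%, 8.21% and 1.22%). A replicate block called 1, 1, 1, 2 and 1, of which Etfb was the gene in all but the average, where Acot3 and Acot1 were called; it lost Plin5 in KO livers (adjusted p = 0.0563) and Acot12 (0.0557). Same-numbered libraries of different groups correlated between -0.195 and 0.28 in their deviations from the group means (median -0.005). Libraries of other numbers correlated between -0.289 and 0.189 (median -0.014). The highest values were those of WT GFP with KO GFP for the numbers 2 (0.28) and 3 (0.264). The labels do not say what the numbers stand for, and these correlations cannot decide whether they pair the libraries. Acsl1 alone was called in KO MET/CAT against KO GFP by edgeR, after quantile normalization, with equal library totals and at a mean of at least 50 (1 member each), and Etfb alone in WT MET/CAT against WT GFP with the length trend removed or equal totals (1 each). Leaving out 1 library gave 0 to 1 members in each of the 5 comparisons. The median member difference moved in KO MET/CAT against KO GFP (-0.11) to -0.326 (equal totals) and -0.296 (length trend removed), and lay between -0.22 and 0.169 without single libraries. For the average of MET/CAT against GFP it was -0.145 with quality weights. For the difference of differences (-0.19) it was -0.47 after quantile normalization and -0.45 with the length trend removed, and lay between -0.253 and 0.001 without single libraries. Equal totals moved the median of all genes to -0.17 in KO MET/CAT against KO GFP, where the members lay 0.156 below it, and to 0.106 in KO GFP against WT GFP. The causes were not tested. Of the 330 counts and medians over all settings and 7 comparisons, 291 stayed within 1.5 times of the count or within 0.189 of the median, the pooled SD of the library medians within groups. Medians this near 0 also changed sign. That of the average of MET/CAT against GFP (0.045) did so in 8 of 23 settings. For KO MET/CAT against WT MET/CAT (-0.007) it did so in 5 of 24. For WT MET/CAT against WT GFP (0.088) it did so in 3 of 24, to -0.09 with quality weights. These changes of sign stayed within that tolerance, except for the average of MET/CAT against GFP with quality weights (-0.145). For KO MET/CAT against KO GFP (-0.106) the sign changed in 1 of 24 settings. Without replicate 2 of KO GFP it was 0.169, outside that tolerance. For KO against WT averaged over plasmids (0.037) the sign changed in 2 of 23 settings, within it. For the difference of differences (-0.19) it changed in 1 of 23, to 0.001 without replicate 3 of WT GFP. The median of KO GFP against WT GFP (0.168) reached 0.343 with equal totals or quantile normalization. Among 46 comparisons of single named genes none was reversed, 24 gained a call in at least 1 setting, and 8 of the 9 with a call lost it in at least 1. Fgf21 lay at a few reads in its lowest libraries.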

Other observations

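Among the other pathway genes, several had large differences that missed the adjusted threshold in limma. Eci3, a peroxisomal enoyl-CoA isomerase, had 50.6, 13.6 and 11.7 in KO MET/CAT livers, 65.8, 70.7 and 34.5 in WT MET/CAT livers, 9.79, 2.88 and 16.3 in KO GFP livers, and 71.8, 36.3 and 82.3 in WT GFP livers, and KO differed from WT by -2.07 (SE 0.46) averaged over plasmids (adjusted p = 0.418). Lipe, the hormone-sensitive lipase, had 204, 415 and 368 in KO MET/CAT livers, 329.9, 293 and 245 in WT MET/CAT livers, 197, 207 and 183 in KO GFP livers, and 429, 378 and 327 in WT GFP livers, with the KO GFP libraries below every WT GFP library. Cyp4a14, a fatty acid omega-hydroxylase and PPARA target, had 18265, 11819.8 and 12622 in KO MET/CAT livers, 16078, 16324 and 11604 in WT MET/CAT livers, 11099, 11964 and 8559.8 in KO GFP livers, and 10967, 5577 and 4434 in WT GFP livers, and MET/CAT differed from GFP by 0.79 (SE 0.22) averaged over genotypes (limma, adjusted p = 0.0596).

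Bdh2, a cytosolic dehydrogenase of short-chain hydroxy acids, had 283, 424 and 365 in KO MET/CAT livers, 216, 191 and 176 in WT MET/CAT livers, 313, 274 and 209.7 in KO GFP livers, and 307, 618 and 259.8 in WT GFP livers. The KO MET/CAT libraries lay above every WT MET/CAT library, with a log2 difference of 0.86 (SE 0.30) (limma, adjusted p = 0.527). Cat, the peroxisomal catalase, had 24518, 20660.0 and 20491 in KO MET/CAT livers, 29347, 28638 and 30973 in WT MET/CAT livers, 31222, 27905 and 35868 in KO GFP livers, and 25296, 22728 and 27668 in WT GFP livers, with the KO MET/CAT libraries below every WT MET/CAT library and a log2 difference of -0.44 (SE 0.19) (limma, adjusted p = 0.61). Cyp4a12a, an omega-hydroxylase higher in male than in female mouse liver, had 93.9, 673 and 23.4 in KO MET/CAT livers, 70.8, 6.33 and 53.4 in WT MET/CAT livers, 396, 315 and 255 in KO GFP livers, and 174, 74.8 and 23.4 in WT GFP livers, and KO differed from WT by 2.07 (SE 0.75) averaged over plasmids (limma, adjusted p = 0.567).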
